A study of Mus musculus with 90 samples.

Results

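Transcript levels of 5 neurotrophin genes were followed through 3 brain regions of mice after a social challenge. The ligands were Bdnf (brain-derived neurotrophic factor, ENSMUSG00000048482) and Ntf3 (neurotrophin-3, ENSMUSG00000049107), and the receptors were Ntrk2 (TrkB, ENSMUSG00000055254), Ntrk3 (TrkC, ENSMUSG00000059146) and Ngfr (the p75 neurotrophin receptor, ENSMUSG00000000120). They were taken by symbol from the 37991 Ensembl identifiers of the count table, and each of the 5 was found and passed the filter on low counts in amygdala, frontal cortex and hypothalamus. The animals were territory-holding males of the C57BL/6J strain, each housed with a female that was taken out before the test. Residents met an unfamiliar BALB/cJ male behind wire mesh for 5 min, or as controls met the cage with a paper cup inside, and tissue was taken 30, 60 or 120 min later. The 90 RNA-seq libraries form 18 groups of 5, apart from 3 hypothalamic controls at 30 min and 6 controls and 6 intruder-exposed residents in frontal cortex at 120 min. Here an intruder library is one from a resident exposed to the intruder.

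Neurotrophins are secreted growth factors that support the survival of neurons and change the strength of their synapses. BDNF acts through the tyrosine kinase receptor TrkB and neurotrophin-3 mainly through TrkC, while p75 binds all neurotrophins and, with sortilin, their uncleaved precursors. In the forebrain Bdnf is made chiefly by excitatory neurons and is transcribed from several starts, some of which respond to neuronal activity. TrkB is made by neurons and, as a truncated form, by astrocytes, and in the adult brain p75 is known as a marker of the cholinergic neurons of the basal forebrain.

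Bdnf is the member known for transcription that follows neuronal activity, so the stretches before its starts were read for 3 motifs that activity-regulated factors are known to bind. These were the full cyclic-AMP response element TGACGTCA, its shorter core TGACG, which lies inside the full element, and the AP-1 element TGANTCA, each searched on both strands. RefSeq (GRCm38.p6, a different build from the NCBIM37 named in the submitters' processing notes) gave windows of 250 bases before 7 starts of Bdnf, 2 of Ntf3, 1 of Ntrk2 and 1 of Ngfr. The full element was in 0 of these 11 windows and in 1.55% of 32851 windows of all genes. A core was found before the Bdnf start that follows chr2:109692186-109692435 (plus strand), where it reads CGTCA on the printed strand and is in capitals. An AP-1 element, in capitals, was found before the start that follows chr2:109676782-109677031 (plus strand). Both windows are shown because they are the stretches of Bdnf that hold such letters, and the counts add up all starts of the gene, so use of either start was not measured.
Bdnf, window with the core: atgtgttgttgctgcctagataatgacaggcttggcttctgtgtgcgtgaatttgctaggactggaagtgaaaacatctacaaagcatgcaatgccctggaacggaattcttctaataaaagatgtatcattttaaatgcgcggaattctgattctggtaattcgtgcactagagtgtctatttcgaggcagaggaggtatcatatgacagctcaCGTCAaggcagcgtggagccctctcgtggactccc
Bdnf, window with the AP-1 element: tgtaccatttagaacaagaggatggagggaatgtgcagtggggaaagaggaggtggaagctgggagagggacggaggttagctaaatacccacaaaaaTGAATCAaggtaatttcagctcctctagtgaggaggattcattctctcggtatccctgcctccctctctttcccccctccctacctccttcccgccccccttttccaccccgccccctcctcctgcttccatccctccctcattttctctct
The letters TGACG were found in 17.8% and TGANTCA in 6.75% of all windows, so neither match sets Bdnf apart.

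Each library held between 38.60 and 58.86 M reads assigned to genes. The dissections could be read from marker genes, given in CPM, the counts of a gene scaled to a common library total. The summed level of 5 genes of cortical glutamatergic neurons was 1460 to 2100 CPM in frontal cortex, 282 to 1350 CPM in the amygdala and 8.96 to 191 CPM in hypothalamus. Hypothalamic markers were at 771 to 1980 CPM in hypothalamus and at most 88.6 CPM elsewhere. Markers listed for the amygdala did not single it out: their sum was 85.6 to 162 CPM there and 228 to 374 CPM in hypothalamus, although Cdh9 and Cyp26b1 were highest in amygdala. Amygdala libraries differed widely in striatal markers (133 to 1520 CPM) and in cholinergic markers (2.50 to 126 CPM), of which Slc18a3 and Lhx8 had no identifier in the table. Intruder libraries 3 and 6 of amygdala at 120 min stood apart with the highest Ngfr of the region, and the Bdnf, Ntf3 and Ngfr effects at that time are given with and without them. In bulk tissue, fewer cells of a type and less RNA per cell cannot be told apart. Every column header of a 30-min library carries the tag ISO and every other one CERV, whose meaning is not given. The design text names the same way of killing for all residents, and this tag and the 30-min time cannot be told apart.

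The 5 genes differed in where they were most abundant. Bdnf was highest in frontal cortex, Ntf3 in amygdala, and Ntrk2 in hypothalamus. Ngfr was scarce in frontal cortex and varied widely between animals in amygdala and hypothalamus, and Ntrk3 was close to level over the regions. Among controls (15, 16 and 13 libraries of amygdala, frontal cortex and hypothalamus), edgeR's quasi-likelihood test with Benjamini-Hochberg adjustment called 4 of 5 genes between hypothalamus and frontal cortex, where 82.2% of 18056 tested genes were called. It called 5 of 5 between amygdala and frontal cortex (67.8% of genes) and 4 of 5 between amygdala and hypothalamus (72.3%). Most genes thus differed between regions, so the number of members called is not a result about them. Most animals gave all 3 regions, and each region enters 2 of the 3 comparisons, so these are not independent.

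Bdnf averaged 41.5 ± 5.22 CPM (SD, n = 32) in frontal cortex, 27.4 ± 7.78 CPM (n = 30) in amygdala and 19.1 ± 3.15 CPM (n = 28) in hypothalamus. In controls Bdnf was lower in hypothalamus than in frontal cortex by a log2 difference of -1.24 ± 0.121 (SE, adjusted p = 3.83e-12). Amygdala lay between them, at -0.54 ± 0.110 against frontal cortex (adjusted p = 4.358e-05) and 0.70 ± 0.12 against hypothalamus (adjusted p = 2.616e-06). Among intruder libraries the latter was 0.38 ± 0.104 (adjusted p = 0.00113). Single libraries did not keep that order, since the Bdnf of amygdala ran from 12.5 to 43.1 CPM and so spanned the whole hypothalamic range of 14.2 to 25.9 CPM and reached into the cortical range of 30.6 to 53.9 CPM.

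Per length, Ntf3 had the lowest mean of the 5 genes in each region. It reached 2.06 ± 1.06 CPM (SD, n = 30) in amygdala, 0.615 ± 0.311 CPM (n = 32) in frontal cortex and 0.259 ± 0.163 CPM (n = 28) in hypothalamus, where a library held 4 to 50 of its reads. The log2 difference of amygdala was 2.0 ± 0.230 against frontal cortex (SE, adjusted p = 6.76e-10) and 2.90 ± 0.271 against hypothalamus (adjusted p = 2.539e-12). Hypothalamus was below frontal cortex by a log2 difference of -0.90 ± 0.285 (adjusted p = 0.00415), and -1.66 ± 0.273 among intruder libraries (adjusted p = 6.051e-07). With so few reads these values carry counting error beside the spread between animals. The order of Ntf3 over regions therefore differed from that of Bdnf, with amygdala and not frontal cortex on top.

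Per length, Ntrk2 had the highest mean of the 5 genes in each region. Its mean was 959 ± 51.2 CPM (SD, n = 28) in hypothalamus, 781 ± 47.1 CPM (n = 30) in amygdala and 676 ± 50 CPM (n = 32) in frontal cortex. The log2 difference between hypothalamus and frontal cortex was 0.51 ± 0.0281 (SE, adjusted p = 1.226e-19), and amygdala stood 0.21 ± 0.0268 above frontal cortex (adjusted p = 7.04e-09) and fell by 0.30 ± 0.0285 against hypothalamus (adjusted p = 4.64e-12). The region with the least Bdnf thus had the most RNA of its receptor gene, and the region with the most Bdnf the least. A gene-level count adds full-length and truncated TrkB, so neither form was measured alone.

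Ntrk3, the receptor of neurotrophin-3, was at 43.8 ± 4.28 CPM (SD, n = 28) in hypothalamus, 42.5 ± 7.26 CPM (n = 32) in frontal cortex and 38.8 ± 4.27 CPM (n = 30) in amygdala. The log2 difference between hypothalamus and frontal cortex was 0.04 ± 0.0483 (SE, adjusted p = 0.444), and 0.12 with upper-quartile scaling, which called it (adjusted p = 0.0252). Amygdala was lower than hypothalamus (log2 -0.21 ± 0.0489, adjusted p = 0.000189) and lower than frontal cortex (log2 -0.17 ± 0.0460, adjusted p = 0.00114). The last of these was not called among intruder libraries, where it was -0.07 (adjusted p = 0.306). Ntrk3 was thus lowest in the region where its ligand gene Ntf3 was highest.

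Ngfr averaged 14.3 ± 8.86 CPM (SD, n = 28) in hypothalamus and 11.7 ± 9.43 CPM (n = 30) in amygdala, against 1.36 ± 1.27 CPM (n = 32) in frontal cortex. The log2 differences from frontal cortex were 3.88 ± 0.409 for hypothalamus (SE, adjusted p = 3.09e-11) and 3.18 ± 0.399 for amygdala (adjusted p = 5.01e-09). Over the settings tried they ran from 3.06 to 3.96 and from 2.79 to 3.21. Amygdala and hypothalamus were not called apart (log2 -0.70 ± 0.352, adjusted p = 0.0712), and the difference depended on the libraries used. It was -0.93 with the animal as a block (adjusted p = 0.0065), -0.06 among intruder libraries (adjusted p = 0.883), and -0.85 to -0.56 with 1 library left out (adjusted p = 0.0302 to 0.180). The ranges overlapped in all 3 regions, from 1.57 to 38.0 CPM in amygdala, 4.33 to 35.6 CPM in hypothalamus and 0.544 to 6.92 CPM in frontal cortex. The libraries with much Ngfr were also rich in cholinergic markers, as described further on.

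**Figure D1:**
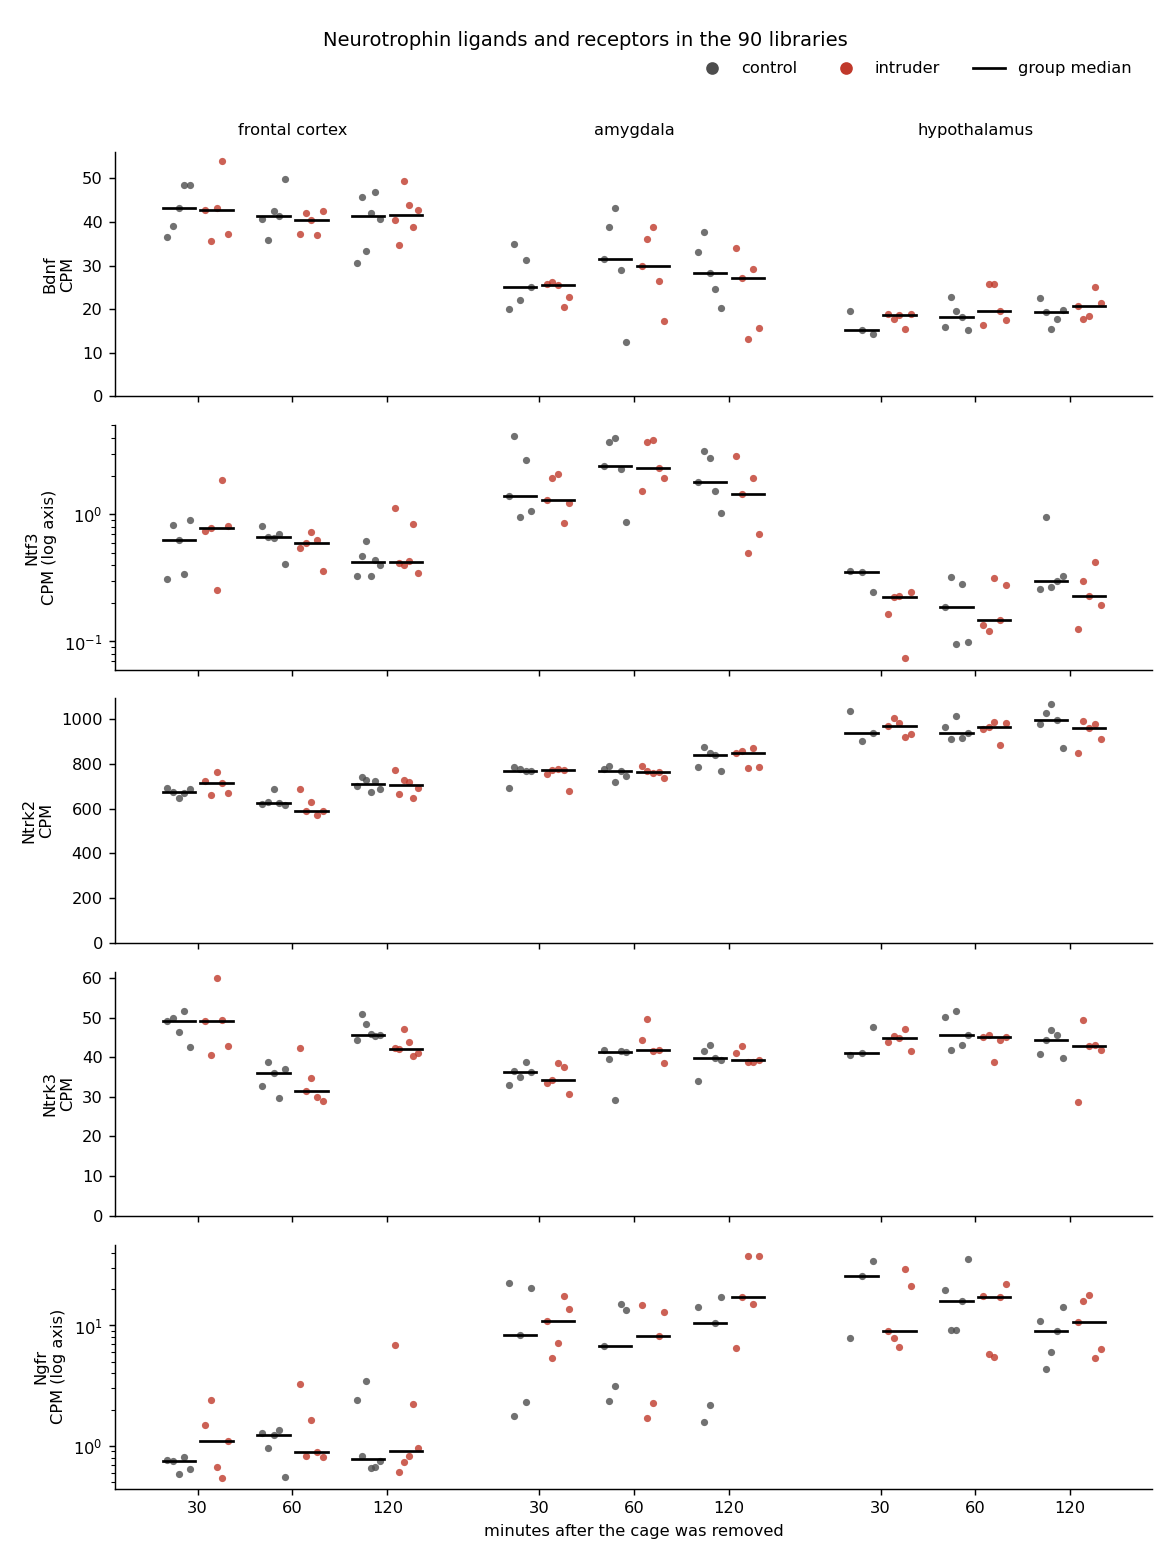
Each point is 1 library, and the vertical axis is CPM (log axes for Ntf3 and Ngfr), by region, time and condition, with a bar at the group median. Groups of control and intruder libraries overlap in every panel, and Ngfr in amygdala runs from 1.57 to 38.0 CPM.

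Levels of different genes were compared only per length, as CPM per kilobase of summed exons. On that scale Ntrk2 led with region means of 35.0 to 49.7 CPM per kb, and Bdnf had 3.07 to 6.67 CPM per kb. Ngfr came to 4.15 CPM per kb in hypothalamus, above the 3.07 of Bdnf, to 3.40 in amygdala, below Bdnf, and to 0.395 CPM per kb in frontal cortex. Ntrk3 stayed at 1.29 to 1.45 CPM per kb, and Ntf3 ran from 0.151 CPM per kb in hypothalamus to 1.20 CPM per kb in amygdala. Exon lengths were summed over all annotated transcripts, so genes with long untranslated ends that few transcripts use are placed too low.

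**Figure D2:**
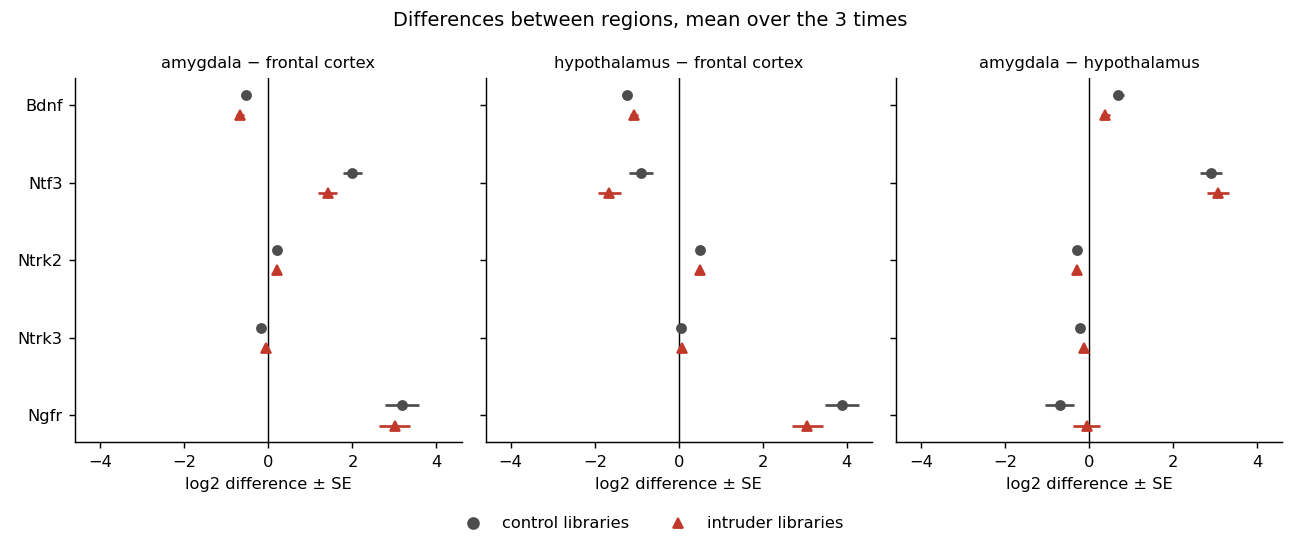
Log2 differences between regions with their standard errors for the 5 genes, in controls (circles) and in intruder libraries (triangles), 1 panel for each pair of regions. Ngfr has the largest difference from frontal cortex (3.88 for hypothalamus and 3.18 for amygdala), Ntf3 the largest between amygdala and hypothalamus (2.90), and Ntrk3 stays near 0.

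The second comparison asked whether meeting an intruder changed the neurotrophin genes within 120 min. No member was called in any region at any time. edgeR called 0 of 5 in each of the 9 comparisons, also 0 of 5 at an unadjusted p below 0.05, and DESeq2 gave 0 of 5 by both measures. The share of all genes called was 0% in 7 of the 9 comparisons, 0.538% for the amygdala of 120 min and 0.192% for the hypothalamus of that time, so few genes of any kind passed. The effect averaged over the 3 times, its change between times (0.0113% of genes called in hypothalamus, 0% in the other regions) and its difference between regions also gave 0 of 5 calls, with 0% of all genes called for the average and for the difference between regions, and again with 0 at an unadjusted p below 0.05 by edgeR and DESeq2. In none of the 45 combinations of gene, region and time did all intruder libraries lie on one side of all controls. In frontal cortex at 120 min every intruder library carries a different first index from every control. Library index and exposure therefore cannot be told apart in that comparison, for any gene.

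Bdnf, whose RNA is known to rise with neuronal activity, had no called effect, and its groups overlapped in each region and time. In frontal cortex at 30 min the controls were at 36.7, 39.2, 43.3, 48.4 and 48.5 CPM and the intruder libraries at 42.7, 35.6, 43.3, 53.9 and 37.2 CPM. The log2 effect there was -0.02 ± 0.112 (SE), and it was -0.07 ± 0.112 at 60 min and 0.06 ± 0.102 at 120 min. Intruder library 4 was above and library 2 below every control, and frontal cortex was where the error on Bdnf was smallest.

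In hypothalamus the Bdnf effect was positive at each time without passing the test. At 60 min controls were at 16.0, 22.8, 19.5, 18.2 and 15.2 CPM and intruder libraries at 16.4, 25.8, 25.9, 19.6 and 17.5 CPM. Intruder libraries 2 and 3 lay above every control of that time and the others among them. The log2 effects were 0.13 ± 0.155 at 30 min, 0.19 ± 0.133 at 60 min and 0.13 ± 0.133 at 120 min (SE), and their average was 0.15 ± 0.0812 with an unadjusted p of 0.0790 and an adjusted p of 0.999.

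In amygdala Bdnf varied more between animals than it did with exposure. At 30 min the controls held 20.2, 34.9, 22.2, 31.3 and 25.1 CPM and the intruder libraries 25.7, 26.2, 25.5, 20.4 and 22.8 CPM, with a log2 effect of -0.15 ± 0.267 (SE). At 60 min the effect was -0.05 ± 0.266. At 120 min the controls were at 33.1, 37.6, 28.2, 24.7 and 20.3 CPM and intruder libraries 1, 2, 3, 4 and 6 at 34.0, 27.2, 13.2, 29.2 and 15.7 CPM, an effect of -0.27 ± 0.267. Intruder libraries 3 and 6 were below every control, and without them the effect was 0.06 (adjusted p = 0.984). With the library index as a block it was -0.89, which rests on library 6 alone. The other intruder libraries of that time carry a different index from the controls. Leaving out these 2 was chosen after the values were seen.

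Ntf3 followed the same libraries in amygdala. At 120 min its level was 1.78, 3.14, 2.79, 1.53 and 1.02 CPM in controls and 2.86, 1.45, 0.50, 1.93 and 0.70 CPM in intruder libraries 1, 2, 3, 4 and 6. The log2 effect was -0.46 ± 0.455 (SE), and 0.02 without libraries 3 and 6 (adjusted p = 0.997). With the index block it was -1.55, again from library 6 alone. At 30 min the effect was -0.46 ± 0.455, and -0.63 to -0.03 with 1 library left out. At 60 min it was 0.02 ± 0.440. In hypothalamus Ntf3 had the lowest intruder effects of any member, -0.75 ± 0.471 at 30 min (adjusted p = 1) and, later, -0.72 ± 0.393 at 120 min (adjusted p = 0.486), on 4 to 50 reads a library. Between them, at 60 min, its effect was 0.02 ± 0.439. Control library 2 at 120 min alone held 0.954 CPM, against 0.261, 0.266, 0.297 and 0.325 CPM in the other controls and 0.127 to 0.419 CPM in the intruder libraries. That library also had 167 CPM of the cortical glutamatergic gene Slc17a7, where the next hypothalamic library had 22.4 CPM. Without 1 library at a time the effect at 120 min ran from -0.97 to -0.17. In frontal cortex the Ntf3 effects were 0.57 ± 0.361, -0.18 ± 0.376 and 0.47 ± 0.353 at the 3 times, with neither direction kept. With 1 library left out the first ran from 0.11 to 0.80 and the last from 0.17 to 0.60.

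The receptors TrkB and TrkC were measured with small errors, and their effects were close to 0. Ntrk2 effects in log2 lay between -0.02 and 0.01 in amygdala (SE 0.0472 at each time), between -0.05 and 0.07 in frontal cortex and between -0.07 and 0.01 in hypothalamus. In amygdala at 120 min, controls held 785, 877, 848, 842 and 769 CPM of Ntrk2 and intruder libraries 848, 859, 780, 873 and 785 CPM. Over the settings tried, leaving out intruder libraries 3 and 6 among them, the effect at that time ran from -0.08 to 0.06 for Ntrk2 and from -0.02 to 0.05 for Ntrk3. Ntrk3 had its highest effect in amygdala at 60 min, 0.16 ± 0.0838 (SE, unadjusted p = 0.0640, adjusted p = 0.732). That effect ran from 0.07 to 0.20 with 1 library left out and from 0.04 to 0.20 over the settings. Among the controls of that time only library 1 shares the index of the intruder libraries. Index and exposure are thus hard to tell apart in amygdala at 60 min. Controls there were at 41.9, 39.6, 29.3, 41.7 and 41.3 CPM and intruder libraries at 44.2, 49.6, 41.5, 41.8 and 38.6 CPM, so that a single low control (library 3) and a single high intruder library (library 2) stood off from overlapping values. The lowest Ntrk3 effect was -0.13 ± 0.0831 in frontal cortex at 120 min (adjusted p = 0.98), where index and exposure cannot be told apart.

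Ngfr showed the largest intruder effect of any member, in amygdala at 120 min. Controls held 14.2, 1.57, 2.17, 10.5 and 17.1 CPM, and intruder libraries 1, 2, 3, 4 and 6 held 6.54, 17.1, 38.0, 15.2 and 37.9 CPM. Libraries 3 and 6 stood far above every control, and the other libraries overlapped them. The log2 effect was 1.33 ± 0.714 (SE, adjusted p = 0.376), and without these libraries it was 0.51 ± 0.80 (adjusted p = 0.943). They hold the highest Ngfr of the region, so a fall of its effect without them was fixed in advance. The lowest controls, at 1.57 and 2.17 CPM, stayed in. With the index block the effect was 2.05, which rests on library 6 alone, since the other intruder libraries carry a different index from the controls.

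The same amygdala libraries held the most cholinergic marker RNA. In intruder libraries 3 and 6 Chat, the enzyme that makes acetylcholine, was at 31.8 and 31.0 CPM, and Slc5a7, the choline transporter, at 64.6 and 62.4 CPM. The sum of the cholinergic markers was 3.16 to 71.6 CPM in controls and 24.7 to 126 CPM in intruder libraries of that time, that of striatal markers 147 to 889 and 249 to 918 CPM, and that of cortical glutamatergic markers 537 to 1160 and 295 to 953 CPM. The log2 effects of Chat (1.25 ± 0.978) and Slc5a7 (1.33 ± 0.846) at 120 min were near that of Ngfr, and neither was called. These 2 effects include libraries 3 and 6 and were not computed without them. The part of these cells in the Ngfr, Bdnf and Ntf3 values was not tested.

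Elsewhere Ngfr effects were not called. They were -0.02 ± 0.709 and -0.03 ± 0.720 in amygdala at 30 and 60 min, and -0.61 ± 0.555, -0.41 ± 0.492 and 0.35 ± 0.506 in hypothalamus at 30, 60 and 120 min. With 1 library left out the hypothalamic effects ran from -1.02 to -0.18, -0.65 to 0.00 and 0.12 to 0.58. In frontal cortex at 30 min the controls lay between 0.583 and 0.802 CPM. The intruder libraries were at 1.5, 2.42, 0.669, 0.544 and 1.09 CPM, an effect of 0.81 ± 0.620 (SE, adjusted p = 0.813). With 1 library left out this effect ran from 0.43 to 1.01. With the library index as a block it was 0.12, which rests on intruder libraries 3, 4 and 5, the ones that share the controls' index. The frontal cortex effect at 60 min was 0.46 ± 0.592, and -0.05 to 0.62 with 1 library left out. At 120 min in frontal cortex the effect of 0.53 ± 0.513 turned to -0.42 without intruder library 1. That library held 6.92 CPM of Ngfr with 5.89 CPM of Chat and the least Slc17a7 of the region, 1120 CPM. It also held 15.6 CPM of Oxt and 8.35 CPM of Avp, hypothalamic peptide genes that were at most 0.685 and 1.25 CPM in the other cortical libraries.

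**Figure D3:**
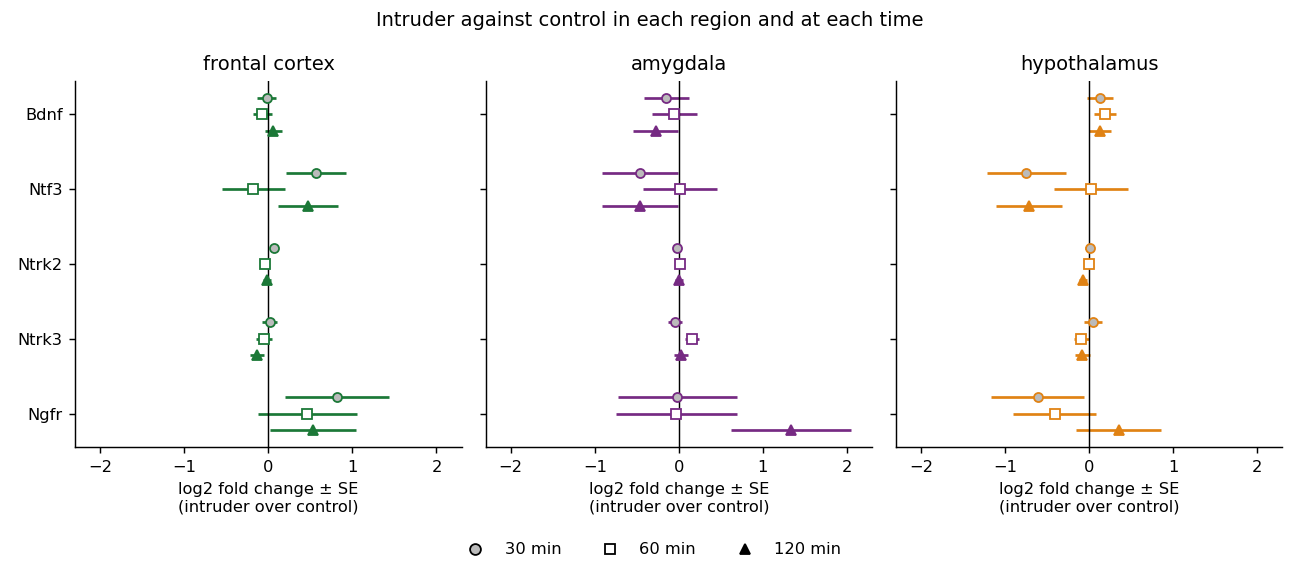
Log2 fold changes of intruder over control libraries with their standard errors for the 5 genes, at 30, 60 and 120 min in each region. None passed the test, Ntrk2 stays nearest 0 with the smallest errors, and the highest point is Ngfr in amygdala at 120 min (1.33 ± 0.714).

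The third comparison was between times within a condition, and here the 2 Trk receptors changed while the ligands and Ngfr were not called. In frontal cortex Ntrk3 fell between 30 and 60 min and was higher again at 120 min, in controls and in intruder libraries alike. Controls held 49.2, 49.8, 46.4, 51.6 and 42.6 CPM at 30 min and 32.7, 38.8, 36.1, 29.8 and 37.1 CPM at 60 min. At 120 min their 6 libraries ran from 44.3 to 51.0 CPM with a median of 45.7. Every control at 60 min lay below every control of the other times. The log2 change from 30 to 60 min was -0.47 ± 0.0915 (SE, adjusted p = 0.000283), and that from 60 to 120 min was 0.43 ± 0.0880 (adjusted p = 0.00808). The level at 120 min was not called against that at 30 min (log2 -0.05, adjusted p = 0.819). Marker sums of other cell types moved as well. That of astrocytes was 4510 to 5120 CPM at 30 min and 3360 to 4290 CPM at 60 min in controls, and 4560 to 5080 and 3460 to 4130 CPM in intruder libraries. The oligodendrocyte sum was 2810 to 3600 CPM at 30 min and 4100 to 6420 CPM at 60 min in controls, and 2200 to 3700 and 3930 to 5820 CPM in intruder libraries. The thalamic sum was 142 to 163 CPM at 30 min and 82.1 to 126 CPM at 60 min in controls, and 144 to 167 and 107 to 133 CPM in intruder libraries. The mural sum was 216 to 247 and 147 to 202 CPM in controls, and 216 to 267 and 185 to 211 CPM in intruder libraries. None of these sums overlapped between these times. At 120 min the astrocyte sums were 3920 to 4550 and 3850 to 4190 CPM, and the oligodendrocyte sums 3440 to 5380 and 3560 to 5800 CPM. The part of these shifts in the Trk values was not tested.

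Intruder libraries of frontal cortex gave Ntrk3 levels of 49.2, 40.6, 60.1, 49.4 and 42.8 CPM at 30 min and 42.4, 31.4, 34.9, 30.0 and 29.0 CPM at 60 min. At 120 min they ran from 40.3 to 47.2 CPM with a median of 42.1. The 60-min libraries overlapped those of 30 and 120 min only through library 1 at 42.4 CPM. The log2 changes were -0.54 ± 0.0916 from 30 to 60 min (adjusted p = 2.356e-05) and 0.35 ± 0.0880 from 60 to 120 min (adjusted p = 0.00728).

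Ntrk2 moved the same way by less. In controls it was at 674 ± 17.8, 635 ± 28.9 and 709 ± 26.9 CPM at 30, 60 and 120 min (SD, n = 5, 5 and 6), and the rise from 60 to 120 min was called (log2 0.16 ± 0.0488, adjusted p = 0.0244) while the change from 30 to 60 min was not (-0.10 ± 0.0508, adjusted p = 0.12). In intruder libraries it was at 707 ± 41.7, 613 ± 46.1 and 704 ± 45.5 CPM, and both steps were called, at -0.21 ± 0.0508 (adjusted p = 0.000966) and 0.20 ± 0.0488 (adjusted p = 0.00685). The 2 steps share the 60-min libraries. Among the time comparisons of this region, the library's first index could be fitted as a block only for intruder libraries from 60 to 120 min, through 60-min controls that share their indices. With that block Ntrk3 (log2 0.46 ± 0.158, adjusted p = 0.0763) and Ntrk2 (0.26 ± 0.0891, adjusted p = 0.0712) were no longer called, with larger changes and larger errors than without it. The control call of Ntrk2 from 60 to 120 min was lost without control library 2, 3 or 5 of 120 min or 1, 5 or 6 of 60 min (adjusted p = 0.0505 to 0.0821). Over any of the times both genes were called in controls (2 of 5 members, 33.4% of genes) and in intruder libraries (2 of 5, 46.1%). The control call of Ntrk2 over any time was lost without any of the same 6 libraries or control library 2 of 60 min (adjusted p = 0.0606 to 0.0863).

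Many other genes changed over time in frontal cortex. Of all tested genes 35.4% were called from 30 to 60 min in controls (members 1 of 5) and 45.5% in intruder libraries (2 of 5), and from 60 to 120 min 15.9% (2 of 5) and 22.9% (2 of 5). Between 30 and 120 min 4.42% and 17.7% of genes were called and 0 of 5 members, of which 0 and 1 (Ntrk3) had an unadjusted p below 0.05 by edgeR and DESeq2 alike. Controls showed these changes without an intruder, and the share of members called is read against a background of this size.

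The direction of these changes went with gene length over the whole table, and both Trk receptor genes are among the longest. The summed exon length was 30.17 kb for Ntrk3 and 19.29 kb for Ntrk2, against a median of 4.89 kb over 11060 genes with at least 5 CPM in each region. It was 6.22 kb for Bdnf, 3.45 kb for Ngfr and 1.71 kb for Ntf3. Across genes, which are not independent replicates, Spearman's rho between length and the log2 change in frontal cortex was -0.40 in controls and -0.46 in intruder libraries from 30 to 60 min, and 0.43 and 0.47 from 60 to 120 min. Of the 126 tested genes at least as long as Ntrk2, both Trk receptor genes among them, 98 were called lower in controls from 30 to 60 min (median log2 change -0.38). In intruder libraries 108 were called lower (median -0.47), with 0 and 1 called higher. From 60 to 120 min 64 and 75 of them were called higher and 0 lower. In the longest of 10 length classes the quartiles of the log2 change were -0.38 and -0.09 in controls and -0.48 and -0.13 in intruder libraries from 30 to 60 min, and 0.06 and 0.25, and 0.08 and 0.27, from 60 to 120 min. Ntrk2 lay inside these quartiles in all 4 comparisons, and Ntrk3 beyond them and farther from 0 in all 4. Whether RNA quality or library preparation differed between the times was not tested. The first index of the libraries also changed with time in frontal cortex, so that within a condition no index was used at more than 1 time. Apart from the fit through shared controls given above, index and time cannot be told apart there.

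**Figure D4:**
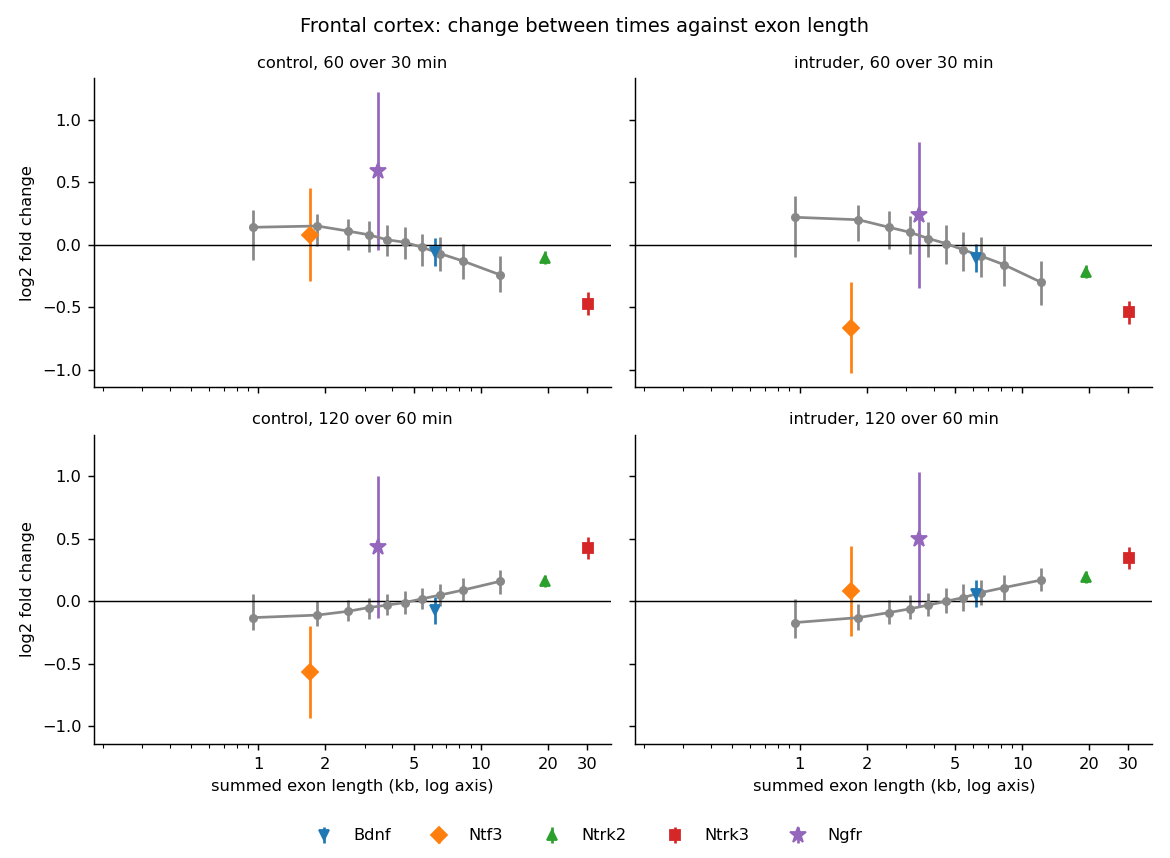
Log2 change between times in frontal cortex against summed exon length (kb, log axis), for controls and intruder libraries. The grey line joins the medians of 10 length classes of all tested genes, with bars for the quartiles, and the labelled points are the 5 genes with standard errors. Ntrk3 (30.17 kb) and Ntrk2 (19.29 kb) lie at the long end, where the medians are lowest from 30 to 60 min and highest from 60 to 120 min.

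In amygdala intruder libraries 2 changes were called: Ntrk3 rose from 30 to 60 min, where it fell in frontal cortex, and Ntrk2 rose from 30 to 120 min. Ntrk3 held 33.6, 34.2, 38.6, 37.6 and 30.6 CPM at 30 min and 44.2, 49.6, 41.5, 41.8 and 38.6 CPM at 60 min (log2 0.31 ± 0.0839, adjusted p = 0.0228; 7.41% of genes called, 1 of 5 members). The highest 30-min and the lowest 60-min library nearly met at 38.6 CPM, and the groups did not overlap. Ntrk2 was called from 30 to 120 min, at 754, 772, 779, 771 and 679 CPM against 848, 859, 780, 873 and 785 CPM (log2 0.15 ± 0.0472, adjusted p = 0.0363; 15.0% of genes, 1 of 5 members). Each 120-min value lay above each 30-min value, but the lowest of the former (779.5 CPM) and the highest of the latter (778.8 CPM) nearly met. Over any of the times Ntrk3 was called (adjusted p = 0.0332, 12.9% of genes), a call that was lost without intruder libraries 3 and 6 of 120 min (adjusted p = 0.0589), while Ntrk2 was then called (adjusted p = 0.0443). With the library index as a block neither was called, at a log2 change of 0.21 for Ntrk3 from 30 to 60 min (adjusted p = 0.863) and 0.19 for Ntrk2 from 30 to 120 min (adjusted p = 0.634). Of 30 fits that left out 1 library 24 lost the Ntrk2 call (adjusted p up to 0.178), and its change stayed between 0.10 and 0.16 in all 30. The Ntrk3 call was lost without intruder library 1 or 5 of 30 min or 1 or 2 of 60 min (adjusted p = 0.0583 to 0.0950). From 60 to 120 min 0 of 5 members were called (0.0695% of genes), with 2 at an unadjusted p below 0.05 by edgeR and DESeq2. The astrocyte marker sum of these libraries was 3260 to 3500 CPM at 30 min, 4000 to 4250 CPM at 60 min and 3850 to 4740 CPM at 120 min, higher without overlap at the later times. The fibroblast sum rose without overlap from 30 to 60 min (42.8 to 62.7 against 70.7 to 107 CPM). The endothelial sum fell without overlap from 30 to 120 min (131 to 168 against 75.9 to 110 CPM). The part of these shifts in the Trk values was not tested. Long genes again moved together here: of the 126 genes at least as long as Ntrk2, 53 were called higher from 30 to 60 min and 69 from 30 to 120 min, and 0 lower.

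In amygdala controls and in hypothalamus no member was called over time. Amygdala controls had 0 of 5 calls against 0.133%, 0.145% and 0.0232% of genes from 30 to 60, 30 to 120 and 60 to 120 min, although Ntrk2 had an unadjusted p below 0.05 in the last 2 of these by edgeR and by DESeq2. Over any of the times 0 of 5 were called there (0.232% of genes), with 1 (Ntrk2) at an unadjusted p below 0.05 by both tools. Its log2 change from 30 to 120 min was 0.12 ± 0.0472 (SE, adjusted p = 0.50), near that of the intruder libraries. Hypothalamic controls had 0 of 5 calls by both tools, with 0.0170%, 0.175% and 0.0396% of genes called, and 0.181% over any of the times. Unadjusted p-values below 0.05 were reached by Ngfr from 30 to 120 min (log2 -1.34 ± 0.559) and by Ntf3 from 60 to 120 min (1.08 ± 0.405), and DESeq2 counted 2 members in the latter. Over any of the times 1 member reached such a value by edgeR and by DESeq2. The Ntf3 value includes control library 2 of 120 min, described above, and ran from 0.52 to 1.32 with 1 library left out. Hypothalamic intruder libraries had 0 of 5 calls and 0 unadjusted p-values below 0.05 by edgeR and DESeq2, against 0.0792%, 1.93% and 0.441% of genes, and 1.49% over any of the times.

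Animals of 1 group differed from each other in which neurotrophin genes were high, and these differences were shared with marker genes. Deviations of log2 CPM from the group mean were correlated over libraries within each region, with permutation within groups. Of 36 planned relations 21 passed at an adjusted p below 0.05, and 18 did without the 2 libraries farthest on the horizontal measure. A second family of 36 relations was added after the values were seen, of which 14 passed, and 11 without the 2 farthest. Libraries of 1 region share a dissection, so each relation also holds whatever tissue entered the sample.

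Ngfr followed the cholinergic genes in every region. Against Slc5a7 it had Pearson's r of 0.973 in amygdala (n = 30), 0.813 in frontal cortex (n = 32) and 0.976 in hypothalamus (n = 28), with Spearman's rho of 0.941, 0.778 and 0.972. The permutation p was 1e-05, the smallest that the permutations can give, for each r (adjusted p = 4e-05), and r was 0.968, 0.799 and 0.978 without the 2 farthest libraries. With Chat r was 0.963, 0.774 and 0.963 in the same order (rho 0.941, 0.745 and 0.959), with an adjusted permutation p of at most 0.000196. In amygdala the lowest Ngfr went with near absence of cholinergic RNA: intruder library 2 of 60 min had 1.69 CPM of Ngfr with 0.128 CPM of Chat, and control 2 of 120 min had 1.57 with 0.360 CPM. This did not hold for every library of frontal cortex, where intruder library 4 of 120 min had 0.832 CPM of Ngfr with 3.41 CPM of Chat. In hypothalamus the 2 highest Ngfr values, 35.5 CPM in control 6 of 60 min and 34.3 CPM in control 5 of 30 min, came with 23.5 and 21.2 CPM of Chat.

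In amygdala Ngfr also followed the striatal markers (r 0.83 to 0.90 over the 6 genes, median 0.87) and the oligodendrocyte markers (median 0.89). All markers of both lists were positively related to it in frontal cortex too (median r 0.60 and 0.49). In hypothalamus all oligodendrocyte markers were (median 0.52), and 4 of 6 striatal ones (median 0.13). Striatal tissue holds cholinergic interneurons, while p75 is known above all from cholinergic cells of the basal forebrain. The part of each source was not tested.

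In amygdala Bdnf followed cortical glutamatergic markers, relations that were tested after the values were seen. Its r there with Slc17a7, the vesicular glutamate transporter of cortical-type excitatory neurons, was 0.975 (rho 0.976, permutation p 1e-05, adjusted p = 7.2e-05, n = 30) and 0.961 without the 2 farthest libraries. All 5 cortical glutamatergic markers were positively related to it there (r 0.78 to 0.97), and all 6 striatal markers negatively (median r -0.86). The amygdala libraries with the most Slc17a7, controls 2 and 3 and intruder library 2 of 60 min at 1170, 1050 and 1060 CPM, held 38.9, 43.1 and 36 CPM of Bdnf. The library with the least Slc17a7 (231 CPM), control 6 of 60 min, held the least Bdnf (12.5 CPM). In frontal cortex and hypothalamus the same relation did not pass (r 0.244 and -0.211, rho 0.198 and -0.178, adjusted permutation p = 0.326 and 0.462). In hypothalamus Bdnf was related to Neurod6, at r 0.774 (rho 0.756, adjusted permutation p = 7.2e-05), a gene whose level there was at most 1.63 CPM. Of the 4 genes of that list with a mean of at least 1 CPM in hypothalamus, 1 was positively related to Bdnf (r -0.52 to 0.46, median -0.36).

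The other ligand, Ntf3, followed Bdnf in amygdala, with r 0.866 (rho 0.910, permutation p 1e-05, adjusted p = 4e-05, n = 30) and 0.819 without the 2 farthest libraries. The relation did not pass in frontal cortex (r 0.029, rho -0.123, adjusted permutation p = 0.919) or hypothalamus (r 0.329, rho 0.311, adjusted p = 0.159). Relations of Ngfr with the ligands were tested after the values were seen. Ngfr ran against both in amygdala, at r -0.707 with Bdnf (rho -0.736, adjusted permutation p = 0.000154) and -0.853 with Ntf3 (rho -0.826, adjusted p = 7.2e-05). With Ntf3 it gave r 0.377 in frontal cortex and -0.385 in hypothalamus (rho 0.346 and -0.340, adjusted permutation p = 0.101 in both). Ngfr and Bdnf were also opposed in frontal cortex (r -0.528, rho -0.592, adjusted permutation p = 0.0178) and hypothalamus (r -0.704, rho -0.706, adjusted p = 0.00172). Amygdala libraries thus ranged from ones high in Bdnf, Ntf3 and glutamatergic RNA to ones high in Ngfr, cholinergic and striatal RNA.

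**Figure D5:**
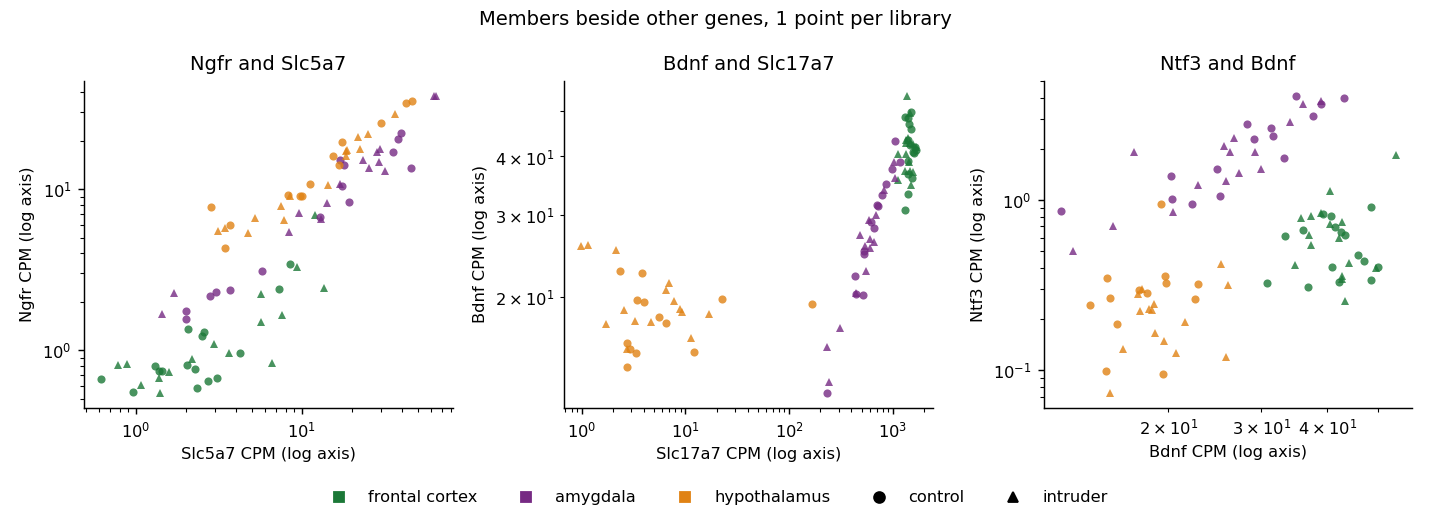
CPM of Ngfr against Slc5a7, Bdnf against Slc17a7, and Ntf3 against Bdnf, each point 1 library on log axes, with colour for region and shape for condition. Ngfr rises with Slc5a7 in all 3 regions (r 0.813 to 0.976 for deviations from group means), whereas Bdnf rises with Slc17a7, and Ntf3 with Bdnf, in amygdala (r 0.975 and 0.866).

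The Trk receptor genes went together, although each followed other long genes more closely, as given further on. Ntrk3 and Ntrk2 were related at r 0.677 in frontal cortex, 0.627 in amygdala and 0.551 in hypothalamus (rho 0.679, 0.556 and 0.485, adjusted permutation p = 0.000609, 0.00039 and 0.0166). In hypothalamus r fell to 0.361 without the 2 farthest libraries (adjusted p = 0.183), so the relation there rests on them. Of 6 astrocyte markers 5, 4 and 5 were positively related to Ntrk2 in amygdala, frontal cortex and hypothalamus, with median r 0.41, 0.37 and 0.14 and lowest r -0.16, -0.23 and -0.48. Among them Ntrk2 was related to the astrocyte glutamate transporter Slc1a3 in amygdala and frontal cortex (r 0.546 and 0.562, rho 0.613 and 0.578, adjusted permutation p = 0.00992 and 0.000849), and at r 0.479 in hypothalamus (rho 0.476, adjusted p = 0.0509). With Aqp4, the astrocyte water channel, r was 0.454, 0.392 and 0.171 in amygdala, frontal cortex and hypothalamus (rho 0.452, 0.437 and 0.17, adjusted permutation p = 0.0422, 0.0497 and 0.552), and the amygdala value did not hold without the 2 farthest libraries (0.341, adjusted permutation p = 0.175).

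Relations of Bdnf with activity-regulated genes were few. Vgf, a secreted peptide precursor that BDNF is known to induce, was related to it in frontal cortex (r 0.743, rho 0.760, adjusted permutation p = 0.000108) and amygdala (r 0.566, rho 0.571, adjusted p = 0.00802), and not in hypothalamus (r -0.073, rho -0.044, adjusted p = 0.804). Npas4, a neuronal activity factor known to act on Bdnf, was related to it in hypothalamus at r 0.418 (rho 0.469, adjusted permutation p = 0.0497), but not in frontal cortex (r 0.446, rho 0.360, adjusted p = 0.0506) or amygdala (r -0.189, rho -0.158, adjusted p = 0.518). Arc and Bdnf were related in frontal cortex (r 0.482, rho 0.420, adjusted permutation p = 0.0416), a relation that rests on 2 libraries, since r was 0.340 without them (adjusted p = 0.202). In amygdala and hypothalamus r with Arc was 0.141 and 0.020 (rho 0.169 and 0.010, adjusted permutation p = 0.601 and 0.927). Nr4a1 did not pass in amygdala, hypothalamus or frontal cortex, at r -0.047, 0.185 and 0.418 (rho -0.009, 0.255 and 0.287, adjusted permutation p = 0.885, 0.501 and 0.0714). Fos and Bdnf gave r of 0.162 to 0.420 over the regions (rho 0.172 to 0.280), none of which passed (adjusted permutation p = 0.0697 to 0.518).

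The genes most like each member were ranked by the mean over the 3 regions of the same within-group correlation, among 11060 genes with at least 5 CPM in every region, and are given as a description. For Bdnf they were Fam19a1 (mean r 0.779), Crhbp (0.763) and Chst8 (0.726). For Ntf3 they were Hrk (0.723), Myo5b (0.671) and Apaf1 (0.671). For Ngfr they were Slc32a1 (0.862), the vesicular GABA transporter, Cacna2d2 (0.845) and Gad2 (0.844), an enzyme that makes GABA. Ntrk2 was most like Nup205 (0.842), Dync2h1 (0.795) and Afdn (0.788), and Ntrk3 most like Arfgef3 (0.880), Tnr (0.863) and Prrc2c (0.860). By this measure the genes most like the 2 Trk receptors were long ones, with summed exons of 9.31 to 16.35 kb, against the median of 4.89 kb.

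Over the 18 group means, which mostly reflect the region, the closest genes were Mal2 (r 0.985), Nptx1 (0.984) and Mical2 (0.983) for Bdnf and Sertm1 (0.976), Syn2 (0.974) and Tiam1 (0.968) for Ntf3. They were Nedd4 (0.991), Ogfod1 (0.989) and Zfp280b (0.989) for Ntrk2, Herc1 (0.950), Senp5 (0.947) and Phf20 (0.944) for Ntrk3, and Gad2 (0.988), Pde1c (0.986) and Mdga1 (0.986) for Ngfr. The 6 genes named here for the Trk receptors had 5.22 to 27.46 kb of summed exons. Gad2 was near Ngfr by both measures.

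Another 55 genes of the pathway were listed, of which 54 were tested in hypothalamus and all in the other regions. In the 9 intruder comparisons edgeR called 0 of them. Fos, a standard marker of neuronal activity, had its largest effects in hypothalamus, 0.54 ± 0.183 at 30 min (SE, unadjusted p = 0.00703, adjusted p = 1) and 0.54 ± 0.166 at 120 min (unadjusted p = 0.00332, adjusted p = 0.246). In amygdala at 30 min it was 0.39 ± 0.149 (unadjusted p = 0.0144, adjusted p = 1.00), and Npas4 was 0.35 ± 0.160. Beside these values the Bdnf effects of the same times were 0.13 ± 0.155 and 0.13 ± 0.133 in hypothalamus and -0.15 ± 0.267 in amygdala.

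Between regions, ligands and receptors outside the 5 moved in both directions. Sort1 (sortilin, the co-receptor of p75 for precursors) was lower in hypothalamus (-1.50 ± 0.0459) and amygdala (-0.71 ± 0.0417) than in frontal cortex, the reverse of Ngfr. Of the 7 genes of this list 3 were called higher and 3 lower in hypothalamus than in frontal cortex, where 82.2% of all genes were called.

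Of 12 listed genes downstream of Trk receptors and of neuronal activity, 11 were lower and 1 higher in hypothalamus than in frontal cortex, where 82.2% of all genes were called, with a median log2 difference of -2.19 against 0.007 over all genes tested. Arc, which acts at synapses, stood at -4.75 ± 0.150 and Homer1, a synaptic scaffold, at -3.30 ± 0.0950, while Scg2, a secretory granule protein, was higher (2.12 ± 0.0673). In amygdala 10 of the 12 were lower and 1 higher than in frontal cortex (median -1.0 against 0.01), where 67.8% of all genes were called, and 10 were higher and 2 lower than in hypothalamus (72.3%).

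Among p75 partners, hypothalamus was higher than frontal cortex in 4 of 7 genes and lower in 2, with Maged1 at 1.09 ± 0.0341 and the Nogo receptor gene Rtn4r at -3.85 ± 0.171. Its partner Lingo1 was at -2.65 ± 0.106. Of 13 adaptors and effectors of Trk receptors 9 were higher and 3 lower in hypothalamus, as Ntrk2 was, with Frs3 at 1.22 ± 0.0440, Sos1 at 0.94 ± 0.0333 and Shc3 at -0.69 ± 0.0808. Of 9 genes for the cleavage of precursors 3 were higher and 5 lower, among them Pcsk1 (0.62 ± 0.0897) and Pcsk2 (-1.18 ± 0.0479), both proprotein convertases. Of 7 regulators of Bdnf transcription 2 were higher and 5 lower, with the repressor Rest at 1.06 ± 0.0618 and the activity-dependent factor Mef2c at -4.08 ± 0.168. In all 51 of the 55 genes were called between these regions, where 82.2% of all genes were.

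In frontal cortex other pathway genes changed over time at shares near those of all genes. From 30 to 60 min 10 of the 55 were called higher and 12 lower in controls (35.4% of all genes), and 10 and 17 in intruder libraries (45.5%). Sorcs1, a sortilin relative, fell in both (log2 -0.97 ± 0.158 and -1.0 ± 0.157), as did the adaptor Shc3 (-1.05 ± 0.215 and -1.02 ± 0.214), the TrkB scaffold Kidins220 (-0.29 ± 0.0604 and -0.36 ± 0.0604) and Creb1 (-0.40 ± 0.0827 in each). Bex3, a p75 partner (0.33 ± 0.0626 and 0.44 ± 0.0627), the adaptor Grb2 (0.22 ± 0.0399 and 0.27 ± 0.0399) and Vgf (0.28 ± 0.0911 and 0.31 ± 0.0912) rose. From 60 to 120 min 8 were higher and 5 lower in controls (15.9% of all genes), and 11 and 4 in intruder libraries (22.9%).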

How the data were processed

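Per the labels' protocols, total RNA was extracted from frozen tissue with Trizol, treated with DNase I, and made into stranded poly(A) libraries (TruSeq Stranded mRNA HT) that were read single-end. The deposited values are raw counts of reads per Ensembl gene, which the authors did not normalize. Per the submitters' processing notes, CASAVA 1.8.2, TopHat2 2.0.8, HTSeq 0.6.1, edgeR 3.2.4, R 3.0.0 and the build NCBIM37 were named, and the strand setting of the counting is not given in the sources used here. If strand was not used, the count of a gene, Bdnf included, would also hold reads of an overlapping antisense gene. The table's 5 summary rows were left out of all totals. Of a library, 8.63% to 14.5% overlapped no feature, 9.79% to 11.5% aligned to several places, and 0.634% to 0.761% fell on more than 1 gene. Reads carry no molecular identifiers. The design text speaks of pooling RNA samples, but each library carries 1 animal label, so animals were taken as replicates (32 animals, 28 with all 3 regions).

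Each region was fitted with edgeR 4.0.16 (R 4.3.3) over its 6 groups, with filterByExpr, TMM scaling and the two-sided quasi-likelihood test. Benjamini-Hochberg adjustment ran over all genes tested (17277 in amygdala, 17091 in frontal cortex, 17676 in hypothalamus, 18056 for the controls of 3 regions), and called means an adjusted p below 0.05. CPM are on TMM-scaled totals of all 90 libraries. Correlations used log2 CPM with a prior count of 2 and 100000 permutations within groups. Symbols and exon lengths are from GENCODE M21, which named 32919 identifiers. Scripts were tested on simulated data. DESeq2 1.42.0, other scalings, no filter, the groups alone, blocks and leaving out libraries were the alternatives. Named genes were the 5 members, the listed pathway and marker genes, and the 3 genes most like each member by each measure, and some of these are not reported here. The members and lists were chosen with earlier results of these data known. Regions of 1 animal share its label, and their libraries' deviations from group means had a median r of 0.06 (amygdala and frontal cortex), 0.32 (amygdala and hypothalamus) and 0.13 (frontal cortex and hypothalamus). No pair of libraries in a group agreed within sampling noise.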

Additional observations from a re-analysis of the deposited data

Results flagged for a closer look

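In 7 of the 85 tested combinations of gene and group, 1 library lay far from the others of its group for its size, where chance gives about 1 in 20. Ngfr was at 6.916 CPM in intruder library 1 of frontal cortex at 120 min, and the nearest of the others was at 2.231 CPM. That library also held 12.0 CPM of Slc5a7 and 5.89 CPM of Chat. Ntf3 was at 0.9538 CPM in control library 2 of hypothalamus at 120 min, with the nearest at 0.3252 CPM, and the same library had the lowest Ngfr of the region, 4.33 CPM, beside its 167 CPM of Slc17a7.

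The other 5 were Trk receptor values. Ntrk2 was lowest at 694.2 CPM in control library 1 of amygdala at 30 min (nearest 768.0 CPM) and at 678.7 CPM in intruder library 5 of the same time (nearest 753.6 CPM). It was highest at 686.0 CPM in control library 3 of frontal cortex at 60 min (nearest 629.6 CPM). Ntrk3 was lowest at 29.28 CPM in control library 3 of amygdala at 60 min (nearest 39.65 CPM) and at 38.86 CPM in intruder library 3 of hypothalamus at 60 min (nearest 44.28 CPM).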

How the results depend on the processing

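In none of the alternatives run was a member called between intruder and control libraries: the lowest adjusted p was 0.253, and 0.231 with 1 library left out (Ngfr, amygdala at 120 min). Without intruder libraries 3 and 6 of amygdala at 120 min, chosen after seeing the data, the effects of Bdnf (0.064) and Ntf3 (0.019) at that time changed sign, and genes called there went from 93 to 1. Ngfr in frontal cortex at 120 min ran from -0.42 to 1.01 with 1 library left out.

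Intruder and control libraries share numbers that do not mark pairs: r of the deviations of same-numbered libraries was -0.71 to 0.75 over 41 pairs, above 0.1 in 16, and the replicate block is an alternative only. Calls over time in amygdala intruder libraries changed with several settings. From 30 to 120 min 1 member became 0 with the library index as a block, no filter, the replicate block (Ntrk2 adjusted p = 0.0602) or upper-quartile scaling. From 30 to 60 min 1 became 0 with the index block. Over any time 1 became 2 with DESeq2, and 0 with the index block, no filter or the replicate block (Ntrk3 adjusted p = 0.0670), and the replicate block changed no other member's call within a region. In frontal cortex the 2 calls from 60 to 120 min in intruder libraries became 0 with the index block, a block that could otherwise be fitted in that region only for intruder against control at 30 and 60 min. With 1 library left out, members called in amygdala intruder libraries ran from 0 to 2 (30 to 120 min), 0 to 1 (30 to 60 min) and 0 to 1 (any time). In frontal cortex they ran from 1 to 2 in controls (60 to 120 min, and any time), and in intruder libraries from 0 to 1 (30 to 120 min, where leaving out library 2 of 30 min called Ntrk3) and 2 to 3 (30 to 60 min and any time, where leaving out library 3 of 30 min called Ntf3 at -0.90, adjusted p = 0.0332). Between amygdala and hypothalamus 6 of 44 such fits called Ngfr (-0.79 to -0.85), and all 44 ran from -0.85 to -0.56.

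Counts over all genes moved more. Intruder against control in amygdala at 120 min gave 93 calls, 409 with DESeq2, 199 with the replicate block, 12 with no filter, and 0 with the 2 groups alone. The index block compares 1 intruder library with the controls there, so its count is left out. In hypothalamus at 120 min the 34 calls became 100 with DESeq2, 6 with the replicate block, and 0 with the 2 groups alone. In amygdala intruder libraries the 1281 calls from 30 to 60 min became 1 with the index block and 804 with no filter, and the 2584 from 30 to 120 min became 1 with the index block, 1587 with the replicate block and 1369 without libraries 3 and 6. Over any time 2225 became 2, 1452 and 1427 in the same order. In frontal cortex the 3914 calls from 60 to 120 min in intruder libraries became 0 with the index block, and the 755 from 30 to 120 min in controls became 1142 with DESeq2 and 441 with no filter. In amygdala controls 40 calls over any time became 196 with DESeq2, 20 with the replicate block or no filter, 18 without libraries 3 and 6, and 0 with the index block. In hypothalamus the calls over any time went from 32 to 162 with DESeq2 and 9 with the replicate block in controls, and from 263 to 607 and 70 in intruder libraries, where those from 30 to 120 min went from 341 to 628, 109 and, with no filter, 222. DESeq2 also raised the amygdala counts of the interaction of time and exposure (0 to 157), of controls (23 to 126, 25 to 93 and 4 to 61 from 30 to 60, 30 to 120 and 60 to 120 min) and of intruder libraries from 60 to 120 min (12 to 99). In hypothalamus it raised those of controls (3 to 42, 31 to 143 and 7 to 40 for the same steps), of the interaction (2 to 25) and of intruder libraries (14 to 79 from 30 to 60 min, 78 to 161 from 60 to 120 min). With the index block the 3 amygdala control counts became 0, and with the replicate block the hypothalamic controls from 30 to 120 min went from 31 to 11 and the intruder libraries from 60 to 120 min from 78 to 38. Ntf3 in hypothalamus rests on at most 50 reads a library, so its values carry more relative counting error than those of the other members there.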
